A study of Rattus norvegicus with 8 samples.

Results

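The account covers 10 imprinted genes, H19, Mest, Nnat, Peg3, Grb10, Plagl1, Cdkn1c, Ndn, Dlk1 and Zim1, in the rat periodontal ligament (PDL), the fibrous tissue that holds a tooth root in its bone socket. All 10 were found among the 17337 genes of the deposited count table. They had been listed by name with results of the same age comparison in view, as a network said to decline during postnatal growth, so their differences between the ages are given as a description and carry no test. The mean level of 9 of the 10 genes lay lower at P28, for some of them by less than the spread between animals. That of Nnat lay higher, against the label.

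The samples were cervical PDL taken by laser micro-dissection from untreated, normally growing rats at 2 ages. The P28 group held 4 animals aged 28 days and the P18 group 4 animals aged 18 days, with 1 library per animal. The ages lie on either side of occlusal contact, and no strain, sex or genotype is named in the labels. RNA was made into libraries with the SMARTer Ultra Low input kit, which is meant for very small amounts of RNA, and sequenced in bulk.

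An imprinted gene is expressed mainly from the copy inherited from 1 parent, because DNA methylation set in the egg or the sperm marks the copies differently. Many imprinted genes sit in clusters that share a control region. In mouse, several paternally expressed genes favour fetal growth and several maternally expressed genes restrain it, and a set of them is expressed strongly before birth and switched down after birth in many organs. The counts do not separate the parental copies, so they measure the total RNA of each gene and not its imprinting.

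The 4 P28 libraries held 5252693 to 17803006 counts and the 4 P18 libraries 10863769 to 26645656. Levels are given in CPM, the count of a gene relative to its library total, scaled for library composition with TMM factors, and 3 counts correspond to 0.108 to 0.624 CPM depending on the library. P28 replicate 4, the shallowest library, stood apart, with correlations of log2 CPM across genes of 0.750 to 0.766 with the other P28 libraries, against 0.813 to 0.827 among those 3. P18 replicate 1 stood apart in the same way, with 0.780 to 0.789 to the other P18 libraries, against 0.816 to 0.835 among those 3. P28 replicate 2 held the largest summed level of 6 measured epithelial markers, 5430 CPM, against 42.2 to 1007 CPM in the other P28 libraries and 22.5 to 569 CPM in P18 libraries. The summed level of 9 measured ligament markers was 131514 to 182873 CPM at P28 and 86345 to 129388 CPM at P18. Aspn, a proteoglycan gene typical of PDL, was at 0 in all P28 libraries and averaged 0.0513 ± 0.0394 CPM at P18 (SD, n = 4), and Col1a2 averaged 29.1 ± 13.4 CPM at P28 and 16.0 ± 5.96 CPM at P18. Whether the annotation used for counting covers Aspn and Col1a2 in full could not be checked, so these low counts are not read as absence. The tissue is named from the sample labels and not from these markers. Col1a1, Col3a1 and Postn made up most of the ligament sum, averaging 72317, 57209 and 20855 CPM at P28. Of the 8 tested ligament markers, 7 had a log2 fold change, P28 over P18, above 0. Fmod lay furthest above, at 2.97 ± 0.52 (SE), and Tnmd alone lay below, at -2.43 ± 0.29 (SE). Osteoblast and cementoblast markers, 7 genes, summed to 5808 to 10319 CPM at P28 and 3864 to 5911 CPM at P18. By log2 fold change 4 of these 7 lay above 0 and 3 below, Alpl, Sp7 and Runx2. Osteoclast markers, 5 genes, summed to 1024 to 7813 CPM at P28 and 1451 to 1707 CPM at P18. The 4 osteoclast markers that were tested lay above 0. Erythroid markers, 6 genes, summed to 599.6 to 4056 CPM at P28 and 2423 to 8084 CPM at P18, and all 6 lay below 0. The part of these cells in the member differences was not tested.

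H19 is a long noncoding RNA and the host of a microRNA, miR-675. The mature sequences are shown because H19 was among the members called lower at P28. They come from RefSeq on the GRCr8 build, which is not the rn6 build of the counts, and lie on the minus strand at chr1:207161800-207161821 for the 5p arm and chr1:207161766-207161786 for the 3p arm. Both lie inside the H19 gene. Capitals mark the seed, bases 2 to 8.
rno-miR-675-5p: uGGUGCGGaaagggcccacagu
rno-miR-675-3p: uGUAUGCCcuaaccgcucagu
The seeds differ between the arms. The row of the hairpin had 0 counts in all 8 libraries, and the libraries were not made to capture mature microRNAs.

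Promoter windows of 300 bases, from 250 before to 50 after the start of the gene, were found in the RefSeq table for 7 members: Mest, Peg3, Grb10, Plagl1, Ndn, Dlk1 and Zim1. The windows of Mest, Zim1 and Peg3 are shown as examples from the 4 members with a window that lay lower in every P28 library than in any P18 library, Grb10 with 44 CpG being the other, to show how rich in CpG, the dinucleotide that is methylated, such starts are. The Mest window is at chr4:60321564-60321863, Zim1 at chr1:76164958-76165257 and Peg3 at chr1:76130744-76131043, all on the plus strand of GRCr8. In the Mest and Zim1 windows capitals mark each CpG.
Mest: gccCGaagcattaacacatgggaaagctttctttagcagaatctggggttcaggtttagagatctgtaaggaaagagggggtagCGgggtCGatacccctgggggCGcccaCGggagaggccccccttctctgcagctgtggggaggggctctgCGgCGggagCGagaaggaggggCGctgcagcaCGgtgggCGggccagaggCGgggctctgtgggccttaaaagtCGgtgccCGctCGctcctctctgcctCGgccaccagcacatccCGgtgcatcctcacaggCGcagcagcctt
Zim1: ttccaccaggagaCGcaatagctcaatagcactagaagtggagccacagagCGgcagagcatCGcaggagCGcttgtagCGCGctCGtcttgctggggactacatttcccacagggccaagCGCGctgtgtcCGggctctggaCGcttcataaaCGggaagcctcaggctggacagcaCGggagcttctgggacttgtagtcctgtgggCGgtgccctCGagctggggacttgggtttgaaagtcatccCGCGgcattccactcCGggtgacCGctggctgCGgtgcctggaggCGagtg
In the Peg3 window capitals mark GGGGCCCC, a motif bound in mouse by the zinc finger protein that Plagl1 encodes, which reads the same on both strands.
Peg3: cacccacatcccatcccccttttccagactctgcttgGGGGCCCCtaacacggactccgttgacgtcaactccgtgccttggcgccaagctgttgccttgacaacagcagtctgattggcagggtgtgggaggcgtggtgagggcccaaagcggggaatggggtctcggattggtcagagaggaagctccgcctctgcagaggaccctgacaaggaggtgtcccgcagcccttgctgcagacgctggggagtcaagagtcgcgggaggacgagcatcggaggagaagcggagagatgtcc
The Mest window held 18 CpG, that of Zim1 21 and that of Peg3 16. Over the 7 members the number ran from 14 to 45, against a median of 7 over 33469 rat windows of the same length, and all 7 lay above that median. The share of those windows with fewer CpG was 72.5% for Mest, 77.4% for Zim1 and 69.5% for Peg3. Over the 7 members it ran from 66.5% for Ndn to 98.3% for Dlk1. GGGGCCCC was present in 0.858% of all windows and in 1 of the 7 members, Peg3, where it starts 213 bases before the gene's start. These matches describe the letters of the windows, since neither methylation nor binding was measured.

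All 10 genes passed the filter on low counts and entered the fit over 10472 genes, Zim1 only through its P18 libraries. In edgeR's quasi-likelihood test with Benjamini-Hochberg adjustment, 3 of the 10 members were called, where 0.936% of all tested genes were called in either direction. The calls were 2 members lower at P28, H19 and Mest, where 0.42% of all tested genes were called lower. One member was called higher at P28, Nnat, where 0.516% of all tested genes were called higher. Every P28 library lay below every P18 library for 5 members, H19, Mest, Peg3, Grb10 and Zim1, against a background of 5.54% of tested genes. Every P28 library lay above every P18 library for 1 member, Nnat, against 4.91%. The ages overlapped for Plagl1, Cdkn1c, Ndn and Dlk1. The median log2 fold change, P28 over P18, was -1.17 over the 10 members and 0.01 over all genes tested. Because the members were listed with this contrast known, nothing is read from these counts against the background. In bulk tissue, fewer cells of a type and less RNA per cell cannot be told apart.

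**Figure D1:**
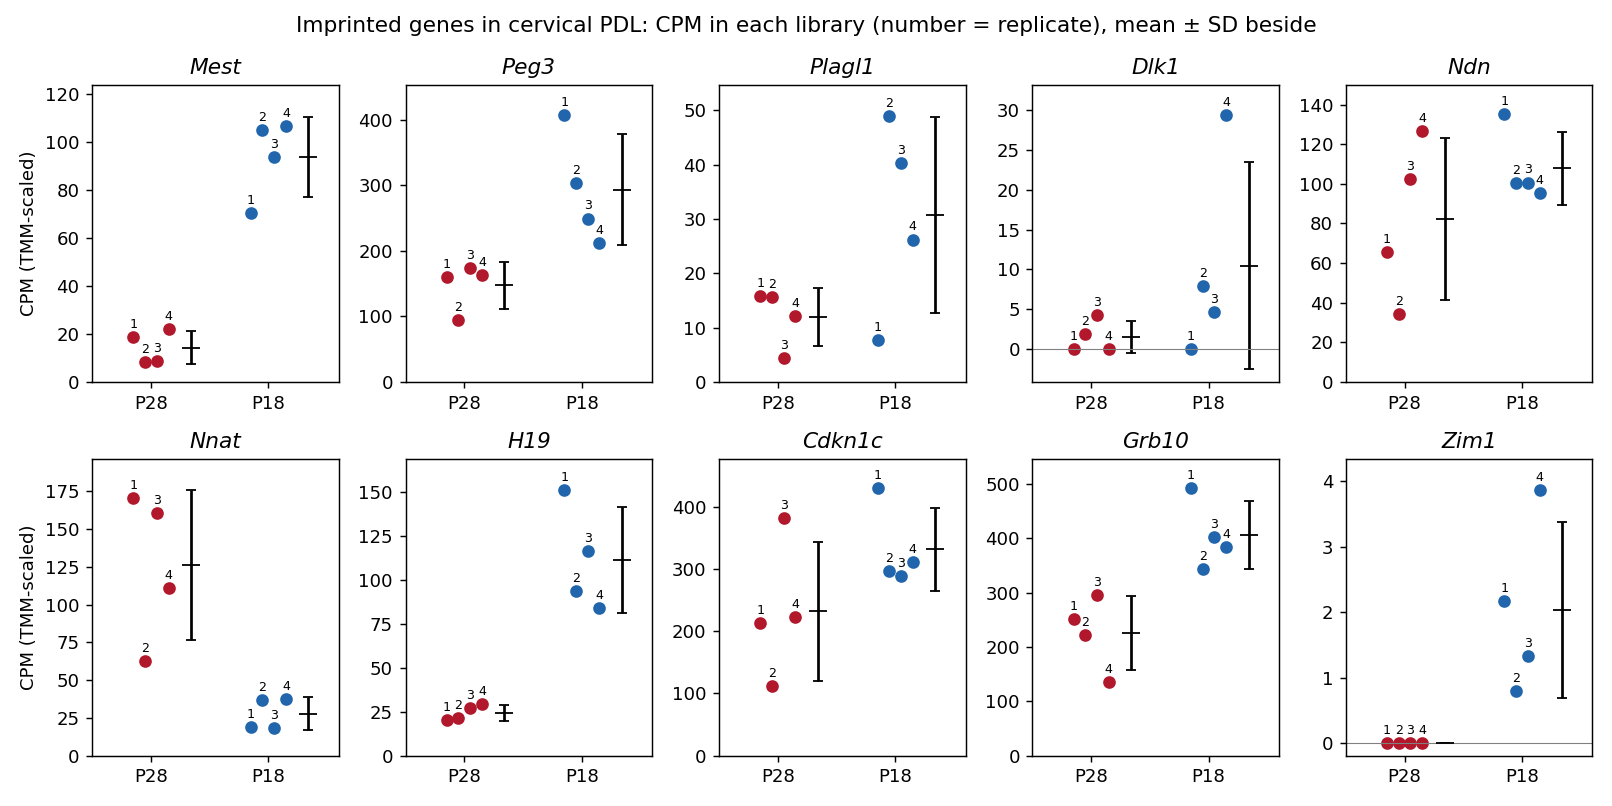
TMM-scaled CPM of each of the 10 genes in every library, P28 in red left of P18 in blue, with the replicate number above each point and the mean ± SD (n = 4 per age) beside it; each panel has its own axis. H19, Mest, Peg3, Grb10 and Zim1 lie lower in every P28 library than in any P18 library, Nnat lies higher in every one, and Plagl1, Dlk1, Ndn and Cdkn1c overlap.

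Of the paternally expressed members, Mest encodes a protein of the alpha/beta hydrolase fold and its loss in mouse reduces growth before and after birth. Its level in replicates 1 to 4 was 18.5, 8.36, 8.56 and 21.8 CPM at P28, against 70.4, 104.9, 93.4 and 106.4 CPM at P18. The highest P28 library lay well under the lowest P18 library. Mest averaged 14.3 ± 6.90 CPM at P28 and 93.8 ± 16.6 CPM at P18 (SD, n = 4 each), a log2 fold change of -2.72 ± 0.39 (SE). Relative to the mean, the P28 libraries varied more, with a coefficient of variation of 48.2% at P28 and 17.7% at P18. Leaving out 1 library at a time gave log2 fold changes from -2.98 to -2.53, and without P18 replicate 2 Mest was no longer called.

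Peg3 encodes a large zinc finger protein, and the mouse mutant is small at birth. Its level was 160.1, 94.5, 173.3 and 162.5 CPM at P28, against 408, 303, 249 and 213 CPM at P18. P28 replicate 2 lay under the other P28 libraries, which were close together, while the P18 libraries were spread. The averages were 148 ± 35.8 CPM at P28 and 293 ± 85.0 CPM at P18, a log2 fold change of -0.99 ± 0.26. Peg3 did not pass the threshold of the fit. In RefSeq it overlaps the antisense transcript Apeg3, which had 0 counts in all 8 libraries, and whether the counting used strand is not given in the sources used here.

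Plagl1 encodes a zinc finger transcription factor that, in mouse, regulates other imprinted genes, among them Igf2, H19, Cdkn1c and Dlk1. Its level was 15.8, 15.7, 4.49 and 12.1 CPM at P28, against 7.68, 48.9, 40.3 and 26.2 CPM at P18. P18 replicate 1 lay among the P28 libraries, and the other 3 P18 libraries lay above all of them. Plagl1 averaged 12 ± 5.30 CPM at P28 and 30.8 ± 18.0 CPM at P18, and had a log2 fold change of -1.36 ± 0.63, and was not called. The value without P18 replicate 1 was -1.68, the lowest on leaving out 1 library, and without P18 replicate 2 it was -1.05, the highest. P18 replicate 1 also had the largest summed level of the 7 enamel organ markers, 4858 CPM, against 5.62 to 638 CPM at P28 and 15.1 to 1329 CPM in the other P18 libraries. Of the 7 enamel markers 4 were tested, and all 4 lay below 0 by log2 fold change. Ambn averaged 2.39 ± 1.63 CPM at P28 and 800 ± 1060 CPM at P18. Odam averaged 198 ± 297 CPM at P28 and 609 ± 883 CPM at P18. The part of the enamel organ cells in the Plagl1 value was not tested.

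Dlk1 encodes a membrane protein related to Notch ligands that restrains fat cell formation in mouse. It was detected unevenly, with 1, 18, 52 and 0 counts at P28, against 0, 219, 110 and 577 counts at P18. In CPM these were 0.0587, 1.88, 4.24 and 0 at P28, against 0, 7.89, 4.70 and 29.4 at P18. Each age had a library with no count, and P18 replicate 4 alone held most of the counts of its age. Dlk1 averaged 1.54 ± 2.00 CPM at P28 and 10.5 ± 13 CPM at P18, and its log2 fold change of -2.74 had an SE of 1.73. Without P18 replicate 4 the log2 fold change was -1.43, and without P28 replicate 3 it was -3.98. This was the largest SE among the 9 members with counts at both ages, although the estimate was as low as that of Mest. The summed level of the 6 fat cell markers was 6.16 to 24.1 CPM at P28 and 13.8 to 37.7 CPM at P18, with Lep at 0 in all libraries.

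Ndn encodes necdin, a protein of the MAGE family that restrains cell division in neurons. Its level was 65.5, 34.3, 102.4 and 126.7 CPM at P28, against 135.0, 100.2, 100.6 and 95.1 CPM at P18. P28 replicates 3 and 4 lay above 3 of the 4 P18 libraries, and those 3 were nearly equal. Ndn averaged 82.2 ± 40.7 CPM at P28 and 108 ± 18.4 CPM at P18, a log2 fold change of -0.39 ± 0.35, and was not called. The estimate lay between -0.67 without P28 replicate 4 and -0.13 without P28 replicate 2.

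Nnat, which encodes neuronatin, a small membrane protein of the endoplasmic reticulum, is also paternally expressed but went the other way. Its level was 170.5, 62.9, 160.7 and 110.9 CPM at P28, against 19.2, 36.8, 18.1 and 37.4 CPM at P18. Every P28 library lay above every P18 library, with P28 replicate 2 the nearest to them. Nnat averaged 126 ± 49.7 CPM at P28 and 27.9 ± 10.7 CPM at P18, a log2 fold change of 2.18 ± 0.38, which is the size of the H19 difference with the opposite sign. The estimate lay between 2.00 and 2.41 on leaving out 1 library at a time, but the call was made in only 2 of those 8 fits, without P28 replicate 2 and without P28 replicate 4. It was lost without P28 replicate 1 or 3 and without any 1 of the 4 P18 libraries. Nnat lies within Blcap in RefSeq, so reads of the 2 genes may not be fully separated. Markers of Schwann cells and nerve, 7 genes, summed to 98.2 to 250.1 CPM at P28 and 67.1 to 246 CPM at P18, and their part in the Nnat difference was not tested.

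Of the maternally expressed members, H19 had the closest P28 libraries, with a coefficient of variation of 18.5% at P28 and 27.0% at P18. Its level was 20.1, 21.3, 27.2 and 29.5 CPM at P28, against 151.6, 93.6, 116.8 and 83.9 CPM at P18. The 4 P28 libraries lay close together and well under the lowest P18 library. H19 averaged 24.6 ± 4.55 CPM at P28 and 111 ± 30.1 CPM at P18, a log2 fold change of -2.18 ± 0.29. The call was made whichever of the 8 libraries was left out, with log2 fold changes from -2.30 to -2.00, and in all 6 other settings. H19 had the smallest SE among the 3 called members.

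Cdkn1c encodes p57, an inhibitor of cyclin-dependent kinases that holds cells out of division, and its loss in mouse causes overgrowth. Its level was 213, 112, 382 and 223 CPM at P28, against 431, 297, 288 and 311 CPM at P18. P28 replicate 3 lay above 3 of the 4 P18 libraries, and P28 replicate 2 lay far under all of them. Cdkn1c averaged 232 ± 112 CPM at P28 and 332 ± 66.5 CPM at P18, a log2 fold change of -0.51 ± 0.31, and was not called. Without P28 replicate 3 the estimate was -0.86 and without P28 replicate 2 it was -0.28.

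Grb10 encodes an adaptor protein that binds the insulin and IGF1 receptors and restrains growth in mouse. Its level was 251, 221, 295 and 135 CPM at P28, against 493, 344, 403 and 384 CPM at P18. The lowest value was that of P28 replicate 4, and the highest P28 library lay under the lowest P18 library. Grb10 averaged 226 ± 67.4 CPM at P28 and 406 ± 62.9 CPM at P18, a log2 fold change of -0.84 ± 0.24, which did not pass the threshold. Without P28 replicate 4, which stood apart, the estimate was -0.66.

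Zim1 encodes a zinc finger protein and neighbours Peg3 in the same cluster. It had 0 counts in all 4 P28 libraries, against 24, 22, 31 and 76 counts, or 2.17, 0.793, 1.32 and 3.87 CPM, in the P18 libraries. All P18 libraries had counts and no P28 library had any. Set against a floor of 3 counts over the 4 P28 libraries together, Zim1 was at least 27.2-fold lower at P28. It was not called. The floor covers counting error only.

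**Figure D2:**
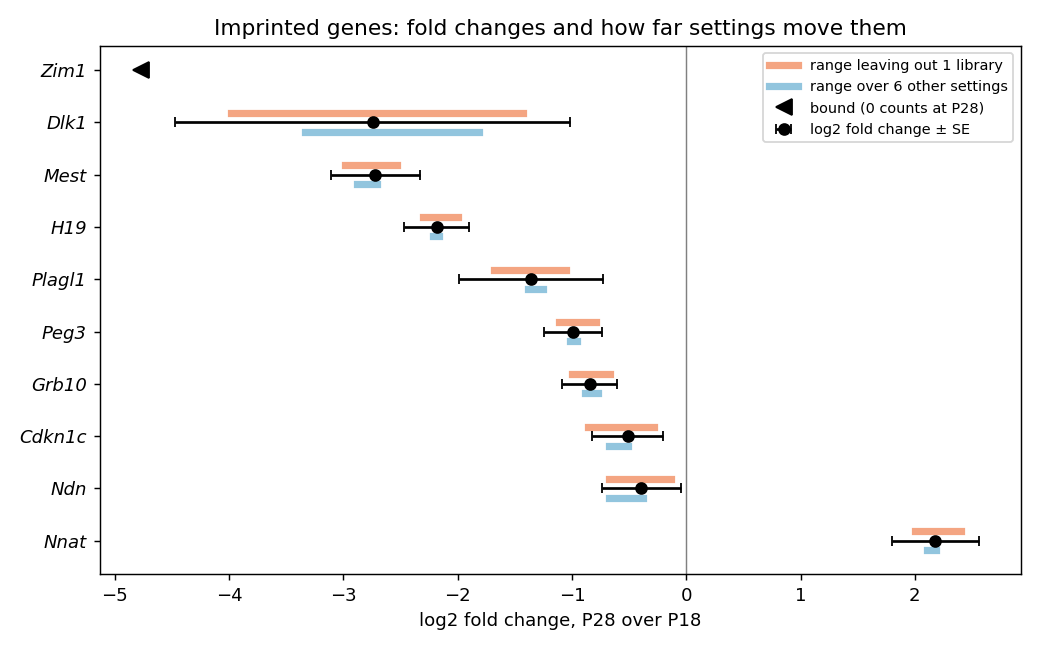
The log2 fold change, P28 over P18, of each gene with its SE (black), its range on leaving out 1 of the 8 libraries (orange) and its range over 6 other processing settings (blue); the triangle for Zim1 is the bound set by 0 counts at P28. No range drawn crosses 0, Dlk1 has the widest of the 9 genes drawn with ranges on leaving out 1 library, from -3.98 to -1.43, and Nnat stands alone on the positive side.

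Among themselves the members did not follow 1 profile over the animals. P28 replicate 2 was the lowest of the P28 libraries for Mest, Peg3, Ndn, Cdkn1c and Nnat, and it is the library with the large epithelial marker sum. P18 replicate 1 was the highest of the P18 libraries for H19, Peg3, Grb10, Cdkn1c and Ndn, yet the lowest for Mest, Plagl1 and Dlk1. It is the library with the large enamel marker sum. The part of the epithelial and enamel cells in these values was not tested. Averaged over the 10 genes as z-scores of log2 CPM, the P28 libraries had -0.45, -0.96, -0.20 and -0.48, against 0.46, 0.57, 0.47 and 0.59 in the P18 libraries. Without P18 replicate 1 the log2 fold change was -2.00 for H19, -2.83 for Mest, 2.04 for Nnat, -0.79 for Peg3, -0.74 for Grb10, -0.36 for Cdkn1c, -0.26 for Ndn and -3.15 for Dlk1. Without P28 replicate 4 it was -2.28 for H19, -2.98 for Mest, 2.24 for Nnat, -1.04 for Peg3, -1.36 for Plagl1, -0.49 for Cdkn1c and -2.35 for Dlk1. All of these kept their sign.

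The genes whose log2 CPM over the 8 libraries was most like this mean z-score, among 7810 genes outside the members with a mean log2 CPM of at least 3, were Mmp23 with a Pearson correlation of 0.990, Tnmd with 0.979, Hapln1 with 0.977, Rsad2 with 0.970 and Trim59 with 0.969. The libraries share the age groups, so these correlations are a description of 8 points in 2 clusters. All 5 lay lower at P28. The mean z-score separates the ages, so this direction was set by the pick, and the calls among the 5 genes are a description. Tnmd, one of the ligament markers, encodes tenomodulin, a membrane protein of tendon and ligament cells. Its log2 fold change was -2.43 ± 0.29, and it was called (edgeR adjusted p = 0.00608). Hapln1, which encodes a link protein of hyaluronan matrix, averaged 11.8 ± 3.66 CPM at P28 and 63.1 ± 4.53 CPM at P18, or -2.42 ± 0.37 as log2 fold change (edgeR adjusted p = 0.0157), a call lost without P28 replicate 1, P18 replicate 2 or P18 replicate 4. For Mmp23, a metalloproteinase, the log2 fold change was -0.84 ± 0.18 (edgeR adjusted p = 0.0494), and for Rsad2, an interferon-induced gene, -3.77 ± 0.76 (edgeR adjusted p = 0.0423). Trim59 had -1.09 ± 0.36 (edgeR adjusted p = 0.173) and was not called. The Rsad2 call was lost on leaving out any library but P28 replicate 3, and the Mmp23 call on leaving out any library but P28 replicate 4. With a replicate block the Hapln1, Rsad2 and Mmp23 calls were lost as well. The Mmp23 call was also lost with DESeq2 size factors (edgeR adjusted p = 0.0539). It was lost again with no filter on low counts (edgeR adjusted p = 0.0535).

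**Figure D3:**
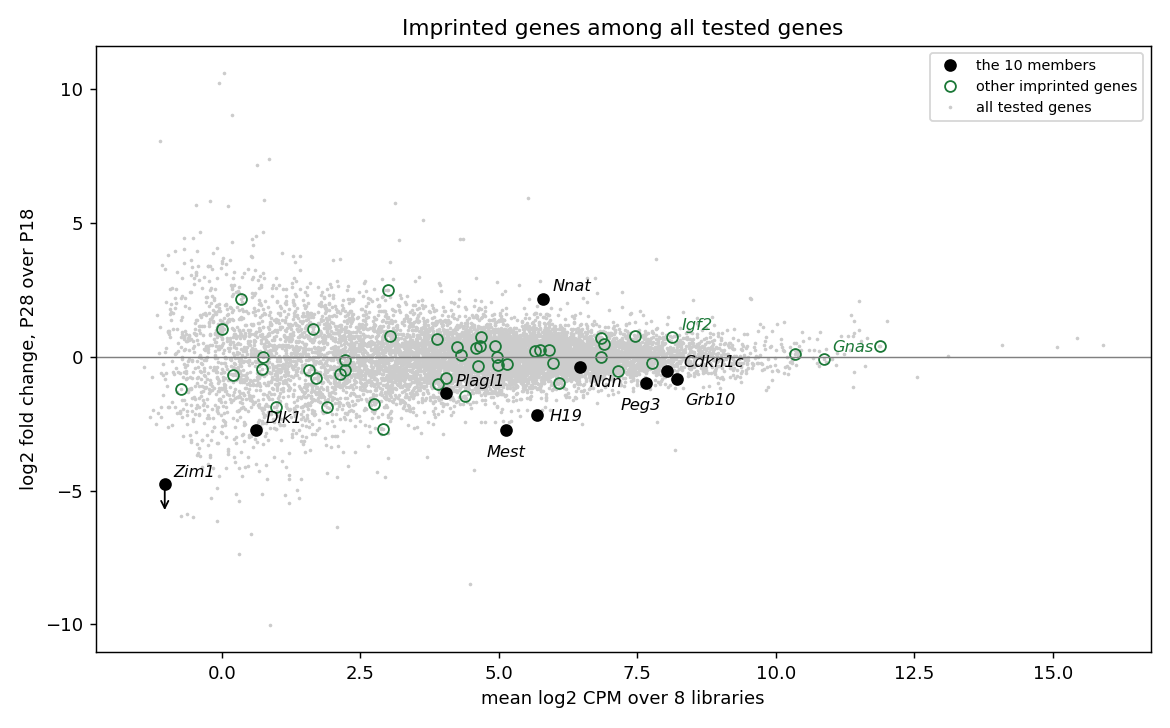
The log2 fold change, P28 over P18, against the mean log2 CPM over 8 libraries for all 10472 tested genes (grey), the 10 members (black) and 47 other imprinted genes (green circles); the arrow on Zim1 marks a bound. The 47 other genes lie on both sides of 0, with 23 above and 24 below, while 9 of the 10 members lie below.

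A wider list of 79 genes reported as imprinted in mouse, at least in some tissues, did not share the members' direction. Of these, 65 were in the table and 47 were tested. None was called in either direction by edgeR's quasi-likelihood test or by limma's voom, 1 was called by the DESeq2 Wald test, and 23 lay above 0 and 24 below. Over all 10472 genes tested, voom called 175 higher and 132 lower, and the Wald test 290 higher and 262 lower. Calls by these 2 tools in the other lists are to be read against those counts. At an unadjusted p under 0.05 there were 6 of the 47, against 14.5% of all genes tested, the share against which the like counts for the other lists are to be read. Their median log2 fold change was -0.02, against 0.01 over all genes tested and -1.17 over the members. For 3 of them, all lower at P28, the ages were without overlap, against 5.54% of all genes tested, a share near theirs. Since the 10 members were picked from the imprinted genes with this contrast known, the gap between the lists is a description of that choice.

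The growth factor gene Igf2, which is paternally expressed in mouse, averaged 396 ± 256 CPM at P28 and 238 ± 52.7 CPM at P18 (SD, n = 4 each), or 0.73 ± 0.39 as log2 fold change (edgeR adjusted p = 0.427). Igf2r, whose product clears IGF2, averaged 257 ± 124 CPM at P28 and 150 ± 86.5 CPM at P18, with 0.78 ± 0.42 (edgeR adjusted p = 0.425). Neither gene passed the test, and P28 replicate 3 weighed on both: without it the log2 fold change was 0.28 for Igf2 and 0.40 for Igf2r. Without P18 replicate 1 or 3, that of Igf2r was 1.18 or 0.52. Gnas, which encodes a stimulatory G protein subunit, averaged 1814 ± 129 CPM at P28 and 1922 ± 106 CPM at P18, with -0.08 ± 0.15 (edgeR adjusted p = 0.856). Sgce, a sarcoglycan gene, had 0.00 ± 0.27 (edgeR adjusted p = 0.998). Phlda2, a restrainer of placental growth in mouse, had -1.20 ± 1.79 (edgeR adjusted p = 0.813) and Slc38a4, an amino acid transporter gene, -0.67 ± 1.57 (edgeR adjusted p = 0.892), both too imprecise to place. Peg10, Magel2 and Rtl1 were not analysed here.

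The genes of that list with the lowest unadjusted p were Pon2, Qpct, Tssc4 and Gatm. Qpct, which encodes a glutaminyl cyclase and stands in the table as RGD1562284, a name that RefSeq pairs with it, averaged 3.08 ± 1.94 CPM at P28 and 20.2 ± 6.34 CPM at P18, or -2.70 ± 0.72 as log2 fold change (edgeR adjusted p = 0.103). Pon2, a paraoxonase gene, averaged 49.95 ± 22.6 CPM at P28 and 98.6 ± 12.2 CPM at P18, with -0.98 ± 0.31 (edgeR adjusted p = 0.162), and passed the threshold without P28 replicate 2 (edgeR adjusted p = 0.0461). Tssc4 had 0.72 ± 0.25 (edgeR adjusted p = 0.189), and Gatm, a gene of creatine synthesis, -1.45 ± 0.61 (edgeR adjusted p = 0.301).

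Genes in or beside the same clusters, as these are known in mouse, were then set against the members. None of the 30 tested neighbours was called in either direction by edgeR, voom or the DESeq2 Wald test, 3 had an unadjusted p under 0.05, and 12 lay above 0 and 18 below, with a median log2 fold change of -0.19. The 4 tested neighbours of H19, among them Igf2, ran from -0.15 to 0.73, all above the -2.18 of H19 itself. The 2 neighbours of Nnat, Blcap and Ctnnbl1, ran from -0.11 to 0.23, under the 2.18 of Nnat. The 2 neighbours of Mest, Copg2 and Cep41, ran from -1.23 to -0.28, above the -2.72 of Mest. The single tested neighbour of Peg3 and Zim1, Usp29, had -0.79 ± 1.25 (edgeR adjusted p = 0.827), near Peg3 but with an SE larger than its estimate. In the Dlk1 cluster 6 neighbours ran from -1.0 to 1.06, with Dio3, a gene of thyroid hormone inactivation, at 13.9 ± 8.35 CPM at P28 and 27.8 ± 18.5 CPM at P18 (edgeR adjusted p = 0.595). Meg3, a noncoding RNA found as RGD1566401, averaged 6.84 ± 7.63 CPM at P28 and 9.64 ± 3.80 CPM at P18 (edgeR adjusted p = 0.894). The 6 neighbours of Cdkn1c ran from -1.20 to 0.74, the 3 of Ndn from -1.88 to -0.23, the 3 of Grb10 from -1.55 to 2.16 and the 3 of Plagl1 from -0.93 to 0.53. Among the lowest unadjusted p of the list were 2 Plagl1 neighbours, the ribosome assembly gene Ltv1 with -0.93 ± 0.30 (edgeR adjusted p = 0.165) and the splicing gene Sf3b5 with 0.53 ± 0.19 (edgeR adjusted p = 0.204). Since the members were listed with this contrast known, the gaps between members and neighbours are a description.

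**Figure D4:**
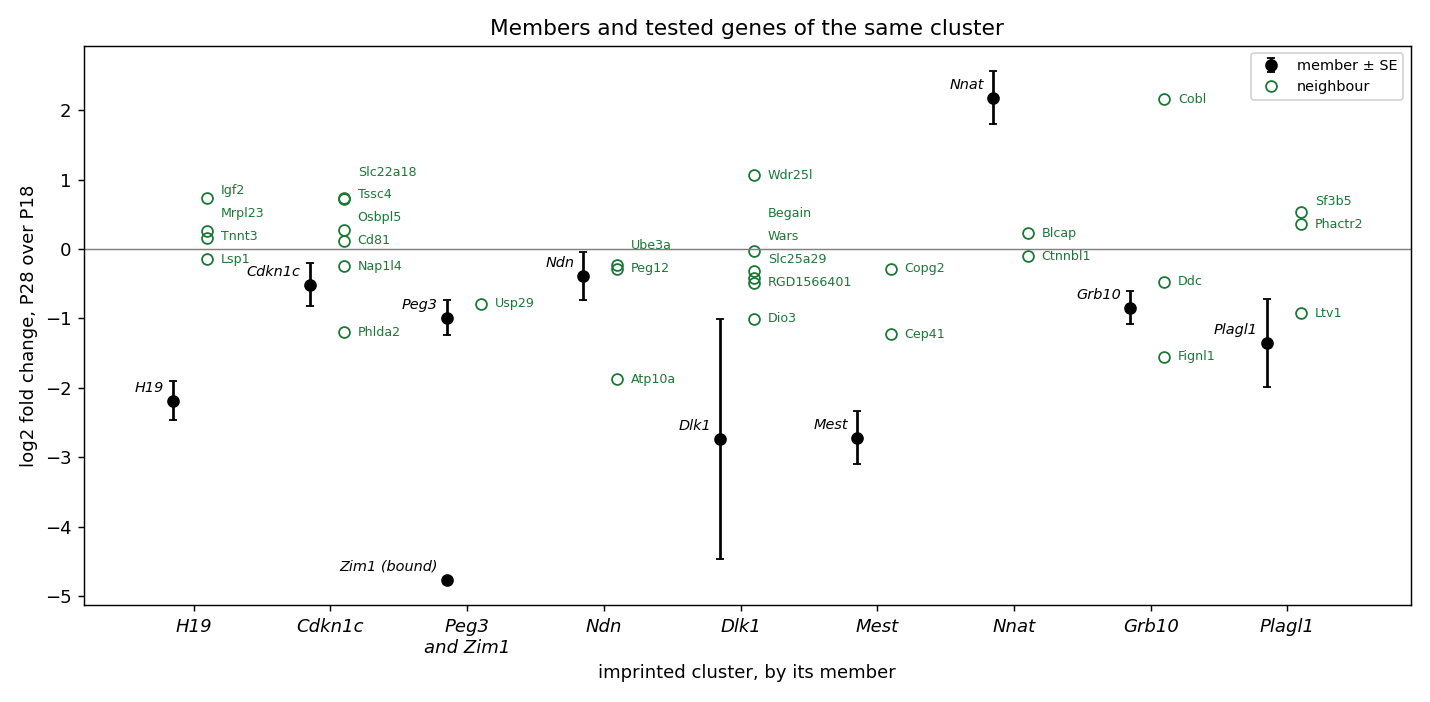
The log2 fold change, P28 over P18, of each member with its SE (black), next to the tested genes in or beside its cluster in mouse (green circles). Zim1 is placed at its bound, and RGD1566401 is the table's name for Meg3. H19 and Mest lie under all of their tested neighbours and Nnat above both of its own. The members were listed with this contrast known, so these positions are a description.

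Ratios of counts within a library do not depend on its depth or scaling. The 3 pairs of a called member and a neighbour were chosen after their values were seen, and are given without a test. H19 over Igf2 was 0.0414, 0.101, 0.0380 and 0.176 at P28, against 0.478, 0.453, 0.548 and 0.387 at P18, so that the highest P28 ratio lay under the lowest P18 ratio. Mest over Copg2, a gene that overlaps the Mest cluster in mouse, was 0.503, 0.167, 0.176 and 2.5 at P28, against 2.90, 2.55, 1.65 and 1.97 at P18. Here P28 replicate 4, which stood apart, lay among the P18 libraries, on 105 counts of Mest and 42 of Copg2, while the other 3 lay below them. Nnat over Blcap was 3.35, 0.811, 5.43 and 1.66 at P28, against 0.379, 0.735, 0.392 and 0.830 at P18. P28 replicate 2 lay between the P18 libraries for that ratio, and the other P28 libraries lay above all of them.

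**Figure D5:**
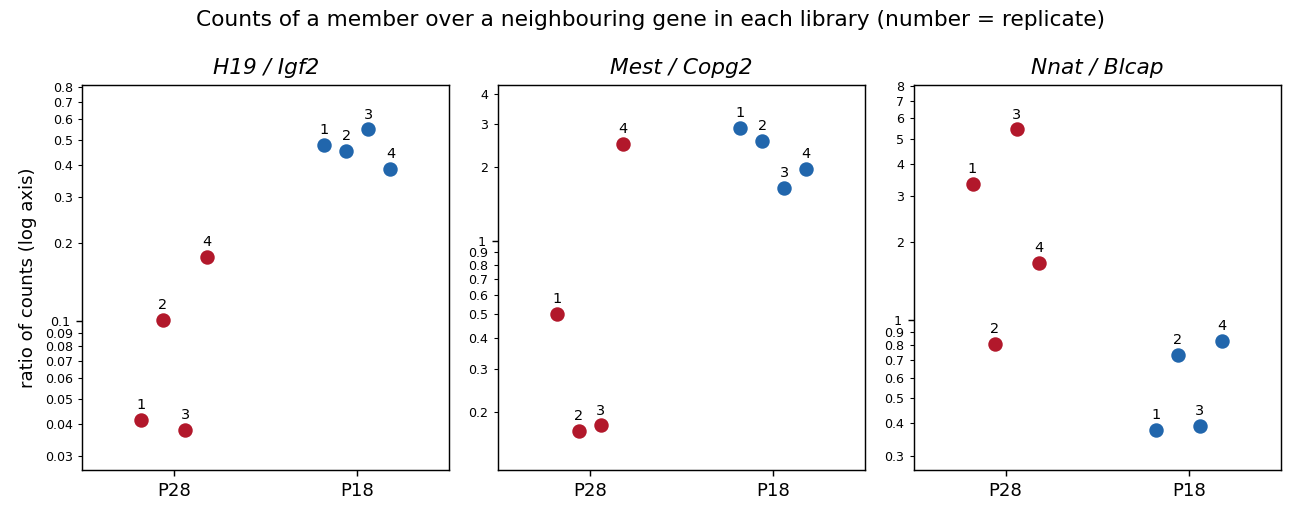
Counts of H19 over Igf2, Mest over Copg2 and Nnat over Blcap in each library, on log axes, P28 in red left of P18 in blue, with replicate numbers. The H19 ratios do not overlap between the ages, whereas P28 replicate 4 crosses into the P18 range for Mest and P28 replicate 2 for Nnat.

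Lists of genes with which the members work were counted in the same fit. Genes that are not imprinted but known as markers of early growth or fetal programmes, such as Igf2bp2 and Mycn, gave 14 tested genes of 23. Of these, 3 had an unadjusted p under 0.05, and 8 lay above 0 and 6 below. None was called by edgeR, and 1 was called by both voom and the DESeq2 Wald test. That gene was Ptn, which encodes the growth factor pleiotrophin, averaged 409 ± 105 CPM at P28 and 231 ± 13.2 CPM at P18, or 0.82 ± 0.20 as log2 fold change (edgeR adjusted p = 0.0818), and also passed the threshold without P28 replicate 4. The related factor Mdk averaged 421 ± 174 CPM at P28 and 701 ± 101 CPM at P18, with -0.74 ± 0.29 (edgeR adjusted p = 0.256). Tyms, a gene of nucleotide synthesis, had -1.12 ± 0.47 (edgeR adjusted p = 0.297) and the matrix gene Smoc2 0.74 ± 0.39 (edgeR adjusted p = 0.423). The median of this list was 0.16.

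For Grb10, 23 genes of insulin and IGF signalling were tested of 26 listed. None was called by edgeR, voom or the DESeq2 Wald test, 1 had an unadjusted p under 0.05, 13 lay above 0 and 10 below, and the median was 0.04. Shc1, an adaptor like Grb10, had -0.56 ± 0.22 (edgeR adjusted p = 0.246). Nedd4, whose product binds Grb10, had -0.36 ± 0.18 (edgeR adjusted p = 0.367), and Pik3r1, a regulatory subunit of PI3-kinase, 2.04 ± 1.02 (edgeR adjusted p = 0.393), a value that was 0.73 without P28 replicate 4.

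For Cdkn1c, all 10 listed cyclins, kinases and their clamp partner were tested. None was called by edgeR, 1 was called by voom and 2 by the DESeq2 Wald test. Over all 10472 genes tested, voom called 175 higher and 132 lower, and the Wald test 290 higher and 262 lower. Of the 10 listed genes, 3 had an unadjusted p under 0.05, 2 lay above 0 and 8 below, and the median was -0.50. Ccna2, the S phase cyclin, averaged 22.0 ± 6.69 CPM at P28 and 67.0 ± 36.3 CPM at P18, with -1.61 ± 0.43 (edgeR adjusted p = 0.103). Ccnd1 had 1.05 ± 0.25 (edgeR adjusted p = 0.0773) and passed without P28 replicate 4, as did Cdk4 with -0.52 ± 0.22 (edgeR adjusted p = 0.301). Pcna, the replication clamp, had -0.61 ± 0.28 (edgeR adjusted p = 0.352). The summed level of 12 markers of dividing cells was 397 to 567 CPM at P28 and 564 to 830 CPM at P18, and overlapped only between P28 replicate 3 and P18 replicate 1. By log2 fold change, 3 of the 12 markers lay above 0 and 9 below. None of them was called by edgeR, voom or the DESeq2 Wald test. The part of dividing cells in the member differences was not tested.

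Among 12 tested relatives of the members, of 17 listed, 1 was called, against 0.936% of all genes tested, 2 had an unadjusted p under 0.05, against 14.5%, and 6 lay on each side of 0. Cdkn1a, the p21 relative of Cdkn1c, rose at P28, at 78.2 ± 9.22 CPM against 15.4 ± 7.89 CPM at P18, or 2.34 ± 0.38 as log2 fold change (edgeR adjusted p = 0.0204). That call was lost without P28 replicate 1 or 3 or P18 replicate 2, 3 or 4, with an edgeR adjusted p of up to 0.0857. Dlk2, the relative of Dlk1, averaged 8.58 ± 6.92 CPM at P28 and 1.39 ± 1.72 CPM at P18, with 2.61 ± 1.42 (edgeR adjusted p = 0.434). The necdin relatives Maged1 and Maged2 had -0.41 ± 0.17 (edgeR adjusted p = 0.277) and -0.36 ± 0.22 (edgeR adjusted p = 0.498).

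Genes that keep imprints or act on DNA methylation gave 15 tested genes of 24, with none called by edgeR, voom or the DESeq2 Wald test. Of the 15, 2 had an unadjusted p under 0.05, 7 lay above 0 and 8 below, and the median was -0.01. Tet1, Tet2 and Tet3, which act in the removal of DNA methylation, were not found in the count table, so that removal was not examined. Uhrf1, which guides methylation maintenance after replication, had -2.94 ± 1.26 (edgeR adjusted p = 0.307), and passed the threshold without P28 replicate 2 (edgeR adjusted p = 0.0494). Kdm1a, a histone demethylase gene, had -0.79 ± 0.34 (edgeR adjusted p = 0.301), Trim28, a corepressor that protects imprints, -0.42 ± 0.24 (edgeR adjusted p = 0.458) and Arid4a 0.62 ± 0.42 (edgeR adjusted p = 0.546).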

How the data were processed

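Bulk RNA of 8 laser-dissected cervical PDL samples was measured, 4 animals at P28 and 4 at P18. The deposited table holds raw counts per gene, made by the authors with STAR 2.5.3a and HTSeq 0.9.1 on rn6, per the submitters' processing notes, which also list edgeR 3.16.5. The annotation and whether reads were counted by strand are not stated in the labels. Another 40 columns of per-sample values were not used. The deposited counts were analysed in R 4.3.3 with edgeR 4.0.16: filterByExpr with a minimum count of 10, TMM scaling, glmQLFit and glmQLFTest on age, and Benjamini-Hochberg adjustment over 10472 genes with calls at an adjusted p under 0.05. The SE is the log2 fold change over the square root of F, and CPM use TMM factors. The floor of 3 counts covers counting error only, since reads without molecular identifiers are not independent molecules.

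The members and lists were chosen with earlier results of these data known. Named genes were the members, 12 further imprinted genes, up to 4 genes of each list with the lowest unadjusted p, called cluster neighbours, and the 5 genes most like the members' mean z-score. Older symbols were matched through RefSeq synonyms (GRCr8) for 7 listed genes. Replicate numbers count different animals within each age, so no block was used. Alternatives were DESeq2 1.42.0 size factors and Wald test, upper-quartile scaling, voom with quality weights (limma 3.58.1), no filter, a replicate block and leaving out each library. The fit was tested on simulated data.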

Additional observations from a re-analysis of the deposited data

Results flagged for a closer look

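Of 97 sets of 4 libraries checked, 10 held 1 library far from the other 3 by Dixon's criterion at the 95% level. Chance alone gives about 1 in 20 for independent, normally distributed values. The check used CPM without a log scale, and the sets share the same libraries, so the number flagged is not read as an excess. Of the 10 flagged sets, 3 concern members. Peg3 had 94.5 CPM in P28 replicate 2, with the nearest P28 library at 160.1 CPM. Cdkn1c had 431 CPM in P18 replicate 1, with the nearest P18 library at 311 CPM, and Ndn had 135.0 CPM in the same library, with the nearest at 100.6 CPM. Igf2 was likewise highest in P18 replicate 1, at 317 CPM with the nearest at 217 CPM.

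The other 6 sets belong to genes set beside the members. Qpct (RGD1562284 in the table) had 5.99 CPM in P28 replicate 1 with the nearest P28 library at 2.28 CPM, and 29.6 CPM in P18 replicate 2 with the nearest P18 library at 18.1 CPM. P28 replicate 4 had 1.66 CPM of Gatm, with the nearest at 18.6 CPM, and 684 CPM of Cdk4, with the nearest at 388 CPM. Uhrf1 had 9.82 CPM in P28 replicate 2, with the nearest at 1.04 CPM, and Rsad2 had 6.52 CPM in P28 replicate 3, with the nearest at 1.66 CPM.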

How the results depend on the processing

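Every member kept the sign of its log2 fold change under all 14 alternatives. The 54 genes called higher at P28 and 44 called lower became 290 and 262 under the DESeq2 Wald test, 175 and 132 under voom, and 16 and 10 with the replicate block, although the numbers do not pair the samples: same-numbered libraries had deviations from their age means correlated at -0.0196 to 0.0019. The Wald test called 4 members lower at P28, H19, Mest, Peg3 and Grb10, and 1 other imprinted gene, Qpct. With the block 0 members were called higher, against 1, Nnat. On leaving out 1 library the calls ran from 4 to 110 higher and from 5 to 105 lower over all genes, from 0 to 1 higher and from 1 to 2 lower among the members, and from 0 to 1 lower among the other imprinted genes, the 1 being Pon2 without P28 replicate 2. DESeq2 size factors, upper-quartile scaling and no filter kept these counts within 1.5 times. The fitted value of Zim1, with no count at P28, depends on the tool. The cause of these differences was not tested. The median log2 fold change of the members ran from -1.27 to -1.02 on leaving out 1 library. With 4 animals per age the median SE over all genes tested was 0.49 on the log2 scale. The Ndn difference of -0.39 had its own SE of 0.35 and was not called.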
